A study of Caenorhabditis elegans with 2 samples.

Results

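Genes for the machinery of protein synthesis were examined for occupancy by FLT-1 in embryos of the nematode Caenorhabditis elegans. The set holds every nuclear protein-coding gene whose name in the WBcel235 annotation begins with eif-, eef-, ife-, ifg-, iff- or inf-, or is 1 letter followed by ars- and a digit. That gave 72 of 19973 genes, of which 40 encode translation factors and 32 encode aminoacyl-tRNA synthetases. A gene was called bound when a peak summit of the conservative list, which compares the replicates at an irreproducible discovery rate (IDR) of 0.01, lay between 1000 bp upstream and 200 bp downstream of its start. The naming rule uses no measured value.

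The data are chromatin immunoprecipitation and sequencing (ChIP-seq) with an antibody to GFP. The strain is RW12255, and its label gives the insertion flt-1::TY1::EGFP::3xFLAG on chromosome I. The labels name the targeted gene baz-2, and its product belongs to the BAZ2 family of chromatin proteins, which carry a PHD finger and a bromodomain. There is 1 group of 2 biological replicates of whole midembryos, obtained by egg bleaching, with an age label of 1 hour and chromatin fragments of 200 to 800 bp. No second condition, untagged strain or input was analysed here, so no test between conditions exists and the values below are descriptions. The strain is a tagged line and the material is the whole animal, so the share of cells with FLT-1 at a site and the strength of binding per cell cannot be told apart. Peak lists without reads were used, and how deeply either replicate was sequenced is unknown. Replicate 1 had 1522 nuclear peaks in its own IDR-thresholded list, replicate 2 had 1116, and the conservative list had 2611. Below, the own list of a replicate means this thresholded list unless it is called ranked.

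Initiation factors, named eIF, bring the initiator tRNA, the small ribosomal subunit and the capped mRNA together. The heterotrimer eIF2 delivers the initiator tRNA, eIF2B recharges eIF2 with GTP, the large complex eIF3 organises the small subunit, and eIF4E, eIF4G and eIF4A bind and unwind the cap end of the mRNA. Elongation factors then deliver aminoacyl-tRNA (eEF1A, recharged by eEF1B) and move the ribosome along (eEF2), while eIF5A helps at slow peptide bonds. Aminoacyl-tRNA synthetases attach each amino acid to its tRNA.

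FLT-1 peaks lay at the promoters of 19 of the 72 genes, 26.4% (95% Wilson interval 17.6 to 37.6), beside 6.82% of all nuclear protein-coding genes. Among translation factors 14 of 40 were bound (35.0%, 22.1 to 50.5), and among synthetases 5 of 32 (15.6%, 6.86 to 31.8), whose lower bound is close to the share of all genes. The bound genes took in 6 of the 11 eIF3 genes, both eIF5A genes, 3 of the 6 elongation factor genes, and 1 gene each of the eIF1, eIF1A and eIF6 group, of eIF2B and of eIF4A3. None of the 3 eIF2 genes, the 2 genes for eIF2A and eIF2D, or the 7 genes for eIF4E, eIF4G and eIF4A was bound by this rule, though eif-2alpha, ife-3 and ife-4 were under other settings given below. With so few genes in a role the intervals are wide, from 28.0 to 78.7% for eIF3 and from 0 to 35.4% for the cap-binding group. These intervals overlap, and they cover the counting of genes only. By chromosome, 7 of 21 members were bound on I, 5 of 17 on II, 3 of 13 on III, 3 of 10 on IV, 1 of 8 on V and 0 of 3 on X. The share of all genes bound on each chromosome was not counted, so these counts cannot be read as particular to the members.

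**Figure D1:**
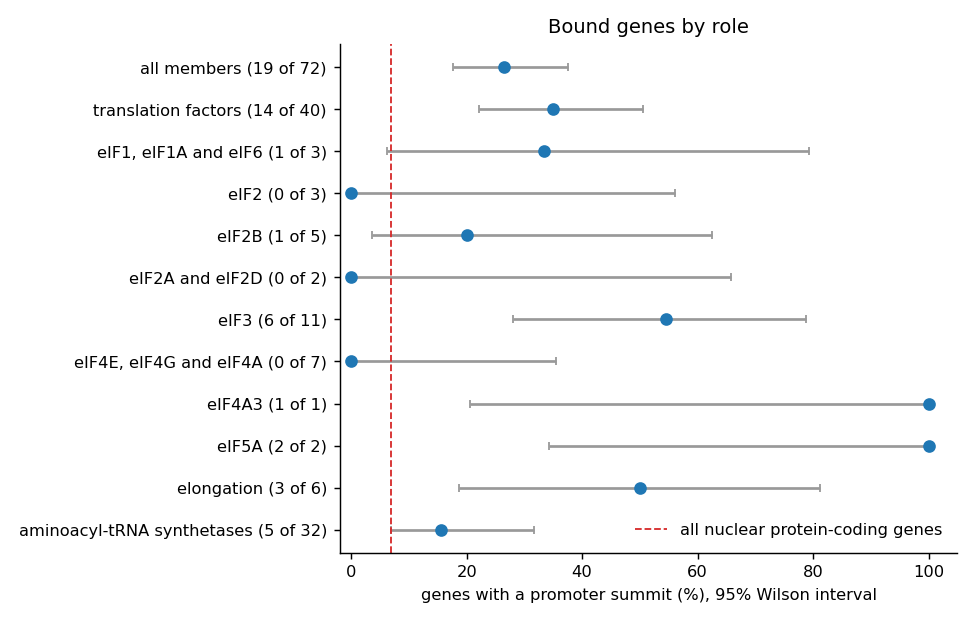
Share of genes bound (%) in each role (points), with bound and total genes beside each name, 95% Wilson intervals as lines, and the share of all nuclear protein-coding genes as the dashed line at 6.82%. The eIF3 genes stand at 6 of 11 and the synthetases at 5 of 32, while eIF2 and the cap-binding group are at 0.

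The signal is the value that the authors' peak caller gave each peak, on a scale not stated in the sources used here, and it serves to rank peaks. Over the 19 bound genes the pooled signal had a median of 123 (interquartile range 87.5 to 159), beside 112 (85.7 to 159.8) over all 1363 bound genes. The members therefore sat within the range of other bound promoters. In replicate 1 the medians were 62.7 for the members and 64.0 for all bound genes, and in replicate 2 they were 53.2 and 46.6. Replicate 1 was the higher at 15 of the 19 members (78.9%), beside 83.9% of all bound genes, and this offset enters every SD below. A peak was present in the own lists of both replicates at 11 of the 19 (57.9%), beside 41.6% of bound genes. The other 8 (42.1%), beside 33.8%, had a peak in neither own list. Those lists are thresholded, and all 19 carried a signal from each replicate.

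**Figure D2:**
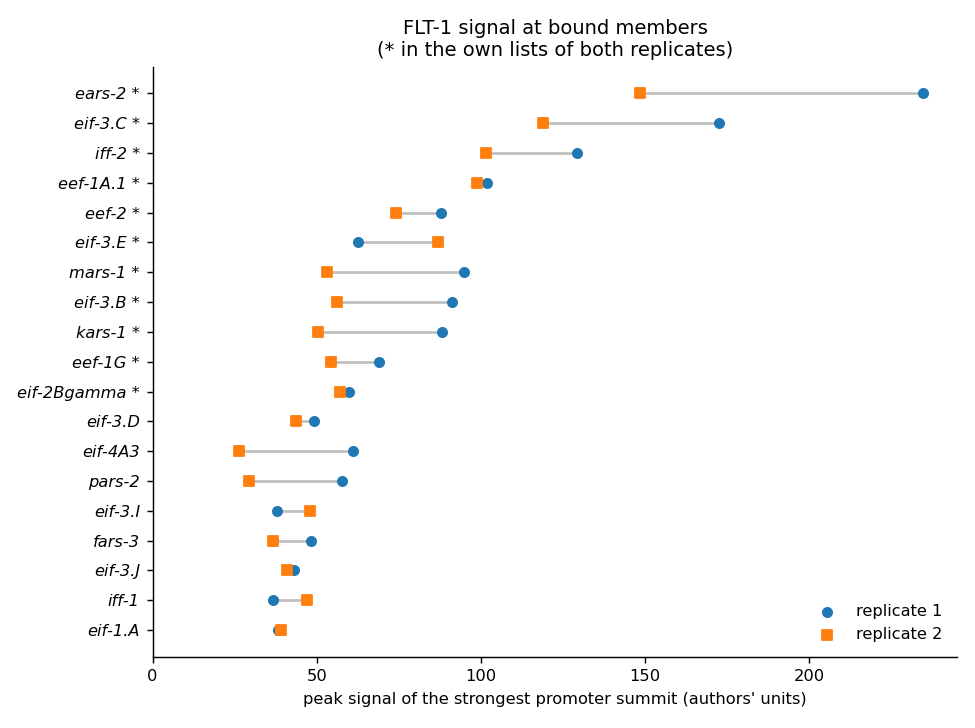
Peak signal (authors' units, linear axis) in replicate 1 (circles) and replicate 2 (squares) at each of the 19 bound genes, ordered by their mean, with a star where both own lists hold the peak. ears-2 and eif-3.C are the highest in both replicates, and replicate 2 lies above replicate 1 only at eif-3.E, eif-3.I, iff-1 and eif-1.A.

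The windows below show the DNA under the summits of 7 bound genes on chromosomes II to V, shown as examples of the strongest peaks and of the string TGCGTA. Each runs 5′ to 3′ on the strand of its gene in ce11, within 100 bp of the summit and outside annotated untranslated regions, and TGCGTA on either strand is in capitals. The strands and positions are minus, chrIV:390469-390559 for ears-2; minus, chrII:8561368-8561548 for iff-2; minus, chrIII:6972000-6972200 for eef-1A.1; minus, chrIV:11635666-11635866 for mars-1; minus, chrII:7072618-7072818 for kars-1; plus, chrII:14795040-14795240 for eif-3.B; and plus, chrV:10965597-10965718 for eef-1G.
ears-2: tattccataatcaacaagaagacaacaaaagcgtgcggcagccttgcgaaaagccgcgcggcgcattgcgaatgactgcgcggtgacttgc
iff-2: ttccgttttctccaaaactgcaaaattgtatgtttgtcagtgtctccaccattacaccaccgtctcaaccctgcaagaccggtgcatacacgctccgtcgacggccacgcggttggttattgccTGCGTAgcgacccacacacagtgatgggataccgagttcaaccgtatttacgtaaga
eef-1A.1: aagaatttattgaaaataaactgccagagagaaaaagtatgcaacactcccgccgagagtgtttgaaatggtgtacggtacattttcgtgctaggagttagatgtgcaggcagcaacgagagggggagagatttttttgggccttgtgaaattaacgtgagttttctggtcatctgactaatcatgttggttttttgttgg
mars-1: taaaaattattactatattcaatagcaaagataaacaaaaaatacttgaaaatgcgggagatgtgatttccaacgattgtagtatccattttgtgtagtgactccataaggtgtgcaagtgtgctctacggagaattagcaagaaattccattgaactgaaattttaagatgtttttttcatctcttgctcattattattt
kars-1: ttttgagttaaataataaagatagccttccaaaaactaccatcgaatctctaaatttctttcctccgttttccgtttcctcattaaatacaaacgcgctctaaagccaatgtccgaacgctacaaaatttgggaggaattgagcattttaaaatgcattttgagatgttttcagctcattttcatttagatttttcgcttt
eif-3.B: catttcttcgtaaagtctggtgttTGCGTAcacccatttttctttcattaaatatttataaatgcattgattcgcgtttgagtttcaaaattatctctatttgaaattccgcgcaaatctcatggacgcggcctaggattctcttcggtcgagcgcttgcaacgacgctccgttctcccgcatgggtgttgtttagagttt
eef-1G: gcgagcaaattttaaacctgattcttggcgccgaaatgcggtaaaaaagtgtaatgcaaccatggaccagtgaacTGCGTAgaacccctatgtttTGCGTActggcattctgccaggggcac

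The eIF3 complex was the role with the most bound genes. eif-3.C, for a core subunit, had the strongest peak of all the factors, at 9979836 to 9979990 on chromosome I with its summit 247 bp upstream of the start. Its signal was 173 in replicate 1 and 119 in replicate 2, a mean of 146 ± 37.9 (SD, n = 2), and it ranked 102 among the 1363 bound genes by pooled signal. Pairs of signals below give replicate 1 and then replicate 2, with their mean ± SD (n = 2) in brackets. The next gene upstream, sys-1, is on the same strand and ends 401 bp from the eif-3.C start. eif-3.E had 62.7 in replicate 1 and 86.9 in replicate 2 (74.8 ± 17.2), and eif-3.B, whose product is the scaffold of the complex, had 91.3 and 56.2 (73.8 ± 24.8). All 3 of these peaks were in the own lists of both replicates. eif-3.D had 49.2 and 43.6, eif-3.J had 43.1 and 40.9, and eif-3.I had 38.0 and 47.9, and none of these 3 was in either own list. The 6 eIF3 promoters ran from the strongest of the factors to values near the lowest of the 19. eif-3.J encodes a loosely attached subunit, and its summit lay 954 bp upstream, the farthest of the 19. The same-strand gene slc-25A46 ends 878 bp upstream of eif-3.J, so its end lies between that summit and the eif-3.J start. eif-3.I had a further summit of the conservative list in an intron, 2033 bp downstream of the start, with 72.9 in replicate 1 and 39.3 in replicate 2. Of the 5 unbound eIF3 genes, eif-3.H reached a pooled signal of 50.05, eif-3.G 43.7, eif-3.F 30.8 and eif-3.K 18.3 in the list of all ranked peaks, and eif-3.L had no ranked summit in its promoter. Other eIF3 subunits carry older names and fall outside the naming rule. These were looked up after the values had been seen, and neither cif-1 (71.1 pooled, 30.0 and 25.3 by replicate) nor egl-45 (53.8 pooled, 33.8 and 6.79) was bound.

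Among the smaller initiation factors, eif-1.A, whose product eIF1A helps the small subunit scan for the start codon, had the weakest bound peak at 38.2 and 39.2 (38.7 ± 0.747). It ranked 1256 of the 1363 bound genes. eif-1 (41.2 and 26.4) and eif-6 (34.5 and 29.8), for a factor that keeps the large subunit apart, had ranked summits with a −log10 IDR of 1.79 and 1.71, under the threshold of 2. All 3 eIF2 subunit genes fell short of it too. eif-2beta came nearest at 1.97 (40.2 and 29.3), while the pooled signal was 56.5 at eif-2gamma and 15.5 at eif-2alpha. In eIF2B, eif-2Bgamma was bound with 59.8 and 57.2 (58.5 ± 1.84), in both own lists. A weaker summit 952 bp upstream carried the same replicate values and a pooled signal of 77.9. The stronger eif-2Bgamma summit, 750 bp upstream, lay inside sup-39, annotated as an snRNA gene. The same-strand gene C15F1.5 ends 252 bp upstream of eif-2Bgamma, nearer the start than this summit. The DNA around that summit had 11 other matches in the genome of at least 50 bp and 90% identity, so the placement of reads there is uncertain. None of the other 18 bound members had such a match. The other eIF2B genes had pooled signals from 21.6 (eif-2Bbeta) to 56.8 (eif-2Balpha). eif-2D reached 63.9, and eif-2A had no ranked summit.

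The cap-binding group, unbound by the same rule, held the strongest signal among all unbound members. ife-4, for an isoform of the cap-binding protein eIF4E, had a pooled signal of 119, near the median of the bound members. Its replicate values were 86.9 and 24.1, its −log10 IDR was 1.79, and the peak was in the own list of replicate 1 only. The other eIF4E genes had pooled signals of 61.5 (ife-2), 40.5 (ife-5), 27.4 (ife-3) and 15.5 (ife-1). The scaffold gene ifg-1 had 52.5 and the eIF4A helicase gene inf-1 had 53.7. eif-4A3, for the related helicase of the exon junction complex, was bound, with 61.1 and 26.3 (43.7 ± 24.6), a −log10 IDR of 2.04 and no peak in either own list. It was the bound member closest to the threshold, and eif-2beta and yars-2, for tyrosyl-tRNA synthetase (1.96, with 45.8 and 26.9), were just outside.

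Both eIF5A genes were bound. iff-2, the isoform of somatic tissue, had 129 and 102 (115 ± 19.5) 81 bp upstream of the start. iff-1, the germline isoform, had 36.6 and 47.1 (41.9 ± 7.37) 173 bp upstream. The iff-2 values were above those of iff-1 in both replicates, and the iff-2 peak alone was in both own lists.

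Elongation factor genes had 3 bound members, all in both own lists. eef-1A.1, 1 of the 2 genes for the tRNA-delivering factor, had 102 and 99.0 (100.4 ± 2.00) with the summit 388 bp upstream. The microRNA gene cel-mir-5549 lies 15 bp from that summit. eef-2, for the translocase, had 87.8 and 74.1 (80.9 ± 9.74) only 10 bp upstream of the start. eef-1G, for the gamma subunit of the exchange factor eEF1B, had 68.9 and 54.3 (61.6 ± 10.4) 22 bp upstream. The paralogue eef-1A.2 was unbound, with 72.9 in replicate 1 and 20.0 in replicate 2, a −log10 IDR of 1.08 and a peak in the own list of replicate 1 only. The other eEF1B genes, eef-1B.1 and eef-1B.2, had pooled signals of 34.2 and 59.6.

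Of the synthetase genes, ears-2, mars-1, kars-1, fars-3 and pars-2 were bound, for glutamyl-, methionyl-, lysyl-, phenylalanyl- and prolyl-tRNA. ears-2 had the strongest peak of the whole set, at 390395 to 390575 on chromosome IV, with 235 and 148 (192 ± 61.1) and rank 52 among bound genes. Its summit lay 30 bp upstream of the ears-2 start, and the divergent gene uncp-18 starts 92 bp away. mars-1 had 94.9 and 53.2 (74.1 ± 29.4) and kars-1 had 88.3 and 50.4 (69.4 ± 26.7), both in both own lists. A second mars-1 summit 479 bp upstream carried the same replicate peaks and a pooled signal of 6.81. fars-3 had 48.4 and 36.7 (42.5 ± 8.27) and pars-2 had 57.8 and 29.5 (43.6 ± 20.05), in neither own list. The pars-2 summit was the only one of the 19 downstream of a start, by 4 bp in an untranslated exon. For 3 unbound synthetase genes, dars-2, iars-1 and sars-2, no ranked summit lay in the promoter. glp-4, a valyl-tRNA synthetase gene outside the naming rule and looked up after the values had been seen, was unbound with 37.7 and 14.3.

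**Figure D3:**
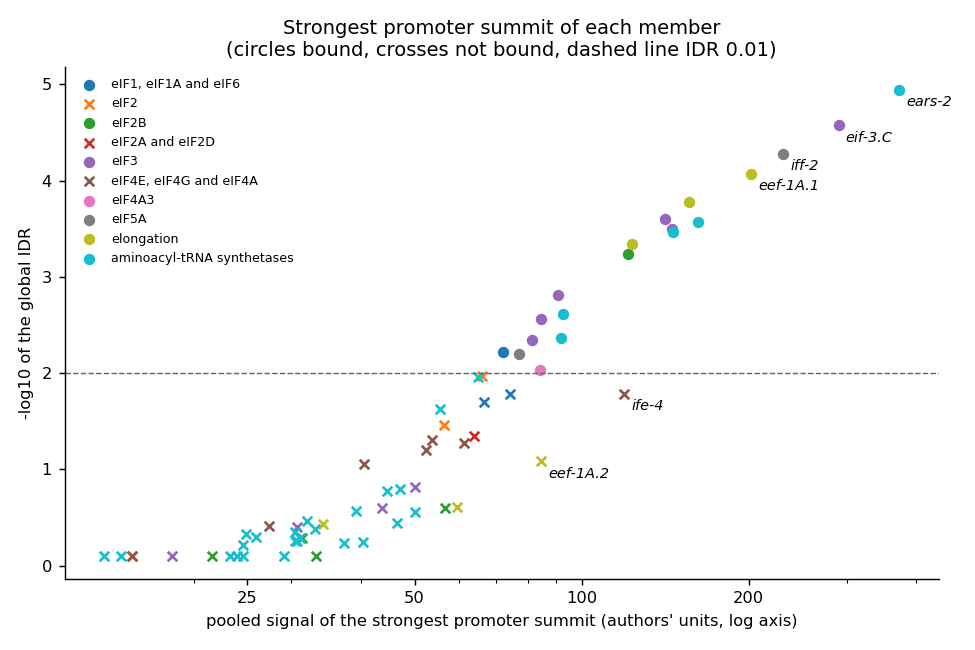
Pooled signal (authors' units, log axis) against −log10 of the IDR for the strongest ranked promoter summit of the 67 members that have one, with circles for bound and crosses for unbound genes and a dashed line at the threshold of 2. ife-4 and eef-1A.2 lie to the right of other unbound genes, at 119 and 84.4.

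Most members had at least a ranked summit, bound or not. Such a summit lay in the promoter of 67 of the 72 members (93.1%), beside 61.0% of all genes. The ranked list held 96334 nuclear peaks, beside 2611 in the conservative list, so a ranked summit alone does not show binding. The 48 unbound members with a ranked summit were all under the threshold and had a median pooled signal of 35.8 (interquartile range 27.0 to 54.2), beside 33.7 (23.9 to 45.2) over the 10823 unbound genes whose summit was under it. Their median −log10 IDR was 0.42, beside 0.31. After ife-4 and eef-1A.2, the strongest were eif-1 at 74.3, eif-6 at 66.7 and eif-2beta at 66.2.

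Summits of the members lay at a median distance from the gene start similar to that at other bound promoters. The rule places most of the allowed window upstream, so a position upstream is largely set by it. For the members the median distance to their own start was 221 bp upstream (interquartile range −331.5 to −89). For the 1075 promoter summits of the list it was 213 bp upstream (−426.5 to −102.5). Those were measured to the nearest promoter's start, so the measures are not fully alike. Of the 19 summits, 18 lay upstream and 15 within 400 bp upstream, and these counts were not made over all bound genes. Many promoters were shared: at 12 of the 19 (63.2%) the same summit also fell in another protein-coding promoter, beside 49.4% of all bound genes, so which gene a peak belongs to is not resolved there. The 12 partners were rfc-4 at eef-1A.1, ctf-4 at eef-1G, clsp-1 at eef-2, cdk-1 at iff-1, uncp-18 at ears-2, vps-20 at eif-4A3, abtm-1 at eif-3.I, R08D7.4 at eif-3.D, B0511.17 at eif-3.E, F58B3.6 at mars-1, F54C9.14 at iff-2 and H06H21.37 at eif-1.A. A divergent gene started within 1000 bp at 11 of the 19 bound members (57.9%), beside 42.8% of all bound genes, and at 31 of all 72 members (43.1%), beside 17.7% of all genes. For 16 of the 19, the member's own start was the nearest, and for eef-1A.1, eif-4A3 and iff-1 the starts of rfc-4, vps-20 and cdk-1 were nearer. Summits within 200 bp of a small RNA gene occurred at 2 of the 19 (10.5%), eef-1A.1 and eif-2Bgamma, beside 7.26% of bound genes, and none was within 200 bp of a tRNA gene. Beyond promoters, summits in gene bodies occurred at 2 of 72 members, eif-3.I and fars-1, beside 3.91% of all genes. The fars-1 summit, in an intron at 6212781 to 6212950 on chromosome I, was strong, with 184 and 143, but lay 34 bp from the snoRNA gene T08B2.13 and in the promoter of mrpl-23.

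**Figure D4:**
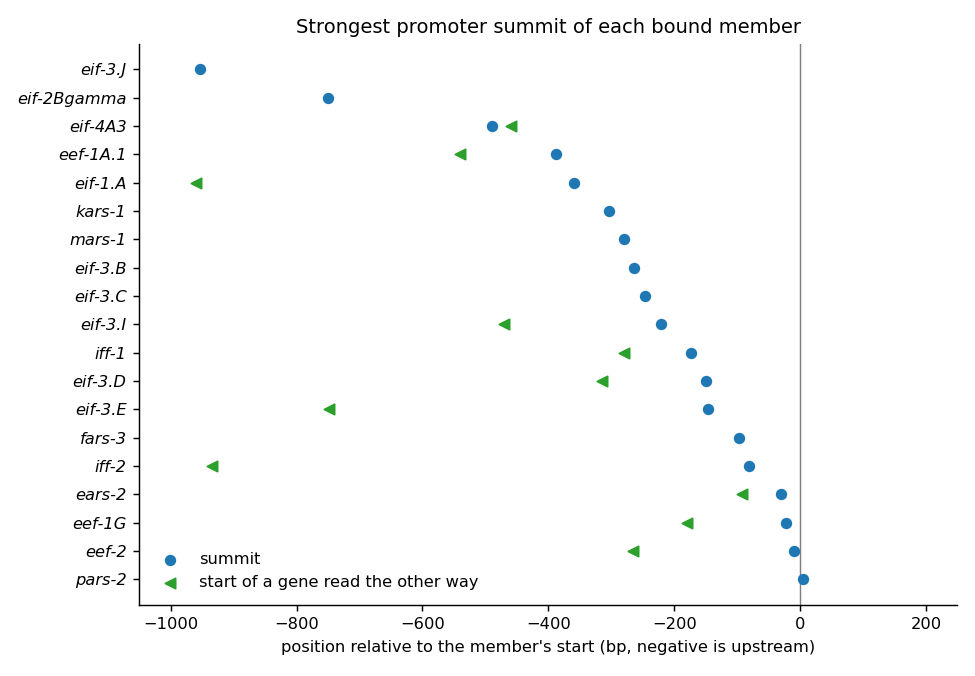
Position in bp from the gene start of the strongest summit at each of the 19 bound genes (circles) and of the start of a gene read the other way (triangles), with upstream to the left. The summits run from 954 bp upstream at eif-3.J to 4 bp downstream at pars-2, and 15 lie within 400 bp upstream.

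The 201-bp windows around the summits had a median GC content of 41.3% (interquartile range 36.6 to 42.8) at the 19 members, beside 44.8% (39.3 to 49.75) at the 1075 promoter summits. Each string was searched on both strands. CACGTG was in 0 of the 19 windows (3.35% of promoter summits), TGATGNAA in 0 (2.79%), CTGCGTC in 0 (10.9%), GAGAGAG in 0 (14.1%), the tRNA B box in 0 (4.19%) and TTTTTTTT in 1, at eif-3.J (11.2%). Another 7 strings were added after the windows had been read, so their counts are no independent evidence. TGCGTA was in 6 windows (31.6%), at eef-1G, eif-2Bgamma, eif-3.B, eif-3.I, eif-3.J and iff-2, beside 11.2% of promoter summits. TTGCG was in 12 (46.8%), TGCG in 17 (83.2%), GCGC in 15 (63.1%), and TGCGTNG (9.4%), CTGCGT (19.3%) and GCGCGC (16.3%) in 3 each, with promoter summits in brackets. TGCGTA contains TGCG, and TTGCG and CTGCGT overlap it, so these counts share windows. The ears-2 window printed above, the strongest of the set, holds no TGCGTA.

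Other genes of translation and its control came from a list of 40 names, of which 29 matched the annotation, and 6 of the 29 were bound (20.7%, 95% Wilson interval 9.85 to 38.4), beside 6.82% of all genes. ifet-1, for a protein that binds eIF4E and represses translation, had the strongest peak with 111 and 115, shared with the ribosomal protein gene rps-1. abcf-2 (92.0 and 99.4) and abcf-3 (38.9 and 39.4) encode ABC-F ATPases. The mitochondrial elongation factor genes gfm-1 and tufm-2 had 55.8 and 65.9, and 45.6 and 32.6. pek-1, for the eIF2 kinase of the endoplasmic reticulum, had 58.5 and 37.9 on chromosome X, where none of the 3 members was bound. All but pek-1 shared their summit with another promoter, and the poly(A)-binding protein genes pab-1 (62.9 pooled) and pab-2 (85.4) were unbound.

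The share of members bound stood above that of all genes under each alternative setting tried. With the other thresholded list over both replicates 20 were bound (beside 7.12% of all genes), with eef-1A.2 and ife-4 gained and eif-4A3 lost. A promoter of 500 bp upstream to 100 bp downstream gave 17 (5.12%), with eif-2Bgamma and eif-3.J lost. A promoter of 2000 bp upstream to 200 bp downstream gave 21 (9.09%), with eif-2alpha and ife-3 gained. Any base of the peak in place of the summit gave 20 (7.29%), with ife-3 gained, any transcript start 19 (7.51%) and the single nearest gene start 16 (5.02%). Leaving out summits near small RNA genes gave 17 (6.33%). An IDR of at most 0.0001 left 4 genes, ears-2, eif-3.C, iff-2 and eef-1A.1 (1.19%). By their own lists, replicate 1 alone gave 13 (4.43%), ife-4 and eef-1A.2 among them, and replicate 2 alone gave 11 (3.53%).

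**Figure D5:**
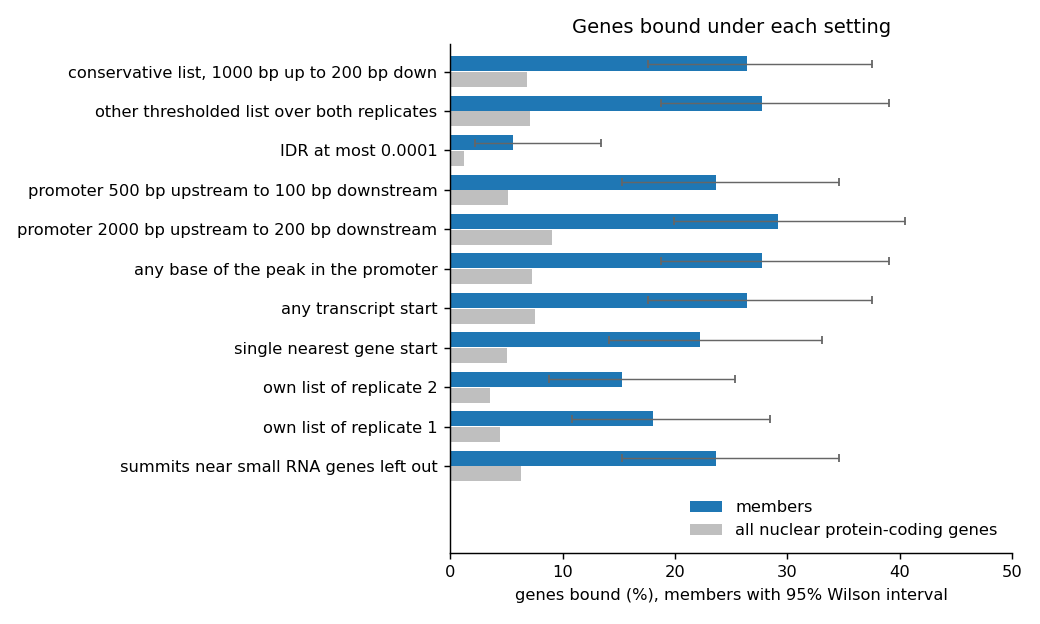
Share of genes bound (%) under each setting for the 72 members (blue, with 95% Wilson intervals) and for all nuclear protein-coding genes (grey). The members' count runs from 4 at the strictest IDR to 21 with the widest promoter.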

How the data were processed

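ChIP-seq was measured in 2 biological replicates of 1 group, numbered as in the labels. The authors deposited peak lists in ce11, which per the file descriptions rest on filtered alignments with a control. The aligner, the caller and the number of reads were not given in the sources used here. Signal is the deposited value of the authors' caller per peak, and −log10 of the global IDR comes from the deposited ranked lists. It was 2 or more throughout the conservative list, an IDR of 0.01. Replicates in the ranked list over both carry no name. They were numbered by identity: 74892 of 74892 and 41189 of 41189 nuclear peaks with shared intervals had the same signal as the own ranked list of replicate 1 and of replicate 2. No further column was left unmapped.

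The annotation was WBcel235 (equal to ce11) in Ensembl release 115, and sequence came from the RefSeq genome of that build. Coordinates are 1-based. Each gene took the strongest summit in its promoter. Further copies of windows were searched with BLASTN 2.17.0. Software was pandas 2.3.3, NumPy 2.4.6 and SciPy 1.17.1 under Python 3.11.15, with plots by matplotlib 3.10.9. The assignment of summits to genes was tested on simulated data. Named genes are all bound members, the 5 strongest unbound ones, those without a ranked summit and the bound related genes. Other unbound members were named after the values had been seen. The members and lists were chosen with earlier results of these data known, so no p-value is given.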

Additional observations from a re-analysis of the deposited data

How the results depend on the processing

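At an IDR of at most 0.0001 the bound count was 4 members, made up of 3 factor genes and 1 synthetase gene, and 1 related gene was bound. Giving each summit to the single nearest gene start left 3 related genes. In the lists of single replicates the range was 11 to 13 members, 8 to 10 factor genes, 3 to 3 synthetase genes and 4 to 4 related genes. The other settings kept these counts within 1.5 times. The median signal of the bound members was 62.7 in replicate 1 and 53.2 in replicate 2, beside 123 pooled. The cause of these shifts was not tested. The stricter IDR and the single nearest start admit fewer peaks or genes by construction. The own lists of single replicates were also shorter, with 1522 and 1116 nuclear peaks beside 2611 in the conservative list. No paired analysis was possible because there is 1 group. The depth is unknown, and only 2 replicates carry the spread. Leaving out eif-2Bgamma and eef-1A.1, near small RNA genes, left 17 bound members.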
